A study of Rattus norvegicus with 6 samples.

Results

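The unfolded protein response (UPR) genes described here were 10 genes of the endoplasmic reticulum (ER) stress pathway, taken by symbol from the expression table: Ern1, Eif2ak3, Atf6, Xbp1, Atf4, Ddit3, Ppp1r15a, Dnajb9, Hspa5 and Hsp90b1. All 10 were found among the 18625 named genes, and all 10 passed the filter on low values (at least 1 scaled CPM in at least 3 libraries). They were measured by RNA sequencing of total RNA from freshly isolated rat pancreatic islets, small groups of endocrine cells that release insulin and other hormones. The postnatal group held 3 libraries titled as 2 weeks old, although their age field reads postnatal week 2 for replicate 1, week 3 for replicate 2 and week 4 for replicate 3. The fetal group held 3 libraries from embryonic day 19 (E19). The labels name no treatment or genotype and are silent on whether each replicate was its own animal. The p-values therefore reflect library-to-library spread alone, and that spread may be technical.

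Proteins bound for secretion fold in the ER, and beta cells and the neighbouring acinar cells, which make digestive enzymes, both carry a large load of them. When unfolded protein accumulates, 3 sensors in the ER membrane respond. IRE1 (Ern1) cuts the Xbp1 mRNA so that it encodes an active transcription factor, PERK (Eif2ak3) slows translation while favouring that of Atf4, and ATF6 (Atf6) is cleaved to release a transcription factor. Their targets include ER chaperones, degradation factors, the stress factor CHOP (Ddit3) and GADD34 (Ppp1r15a), which restores translation. Activity of the sensors is set by splicing, phosphorylation and cleavage, which a table with 1 RNA value per gene does not show.

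The promoters of the response carry known DNA elements, and these are shown first because the genes that share one differed in direction. The best known is the ER stress response element (ERSE), which reads CCAAT, then any 9 bases, then CCACG, and is bound by ATF6 together with NF-Y and by XBP1. Promoter windows of 300 bases from RefSeq (build GRCr8), of which 250 lie before the transcription start, matched 8 of the 10 genes by symbol, all but Ern1 and Atf6. An ERSE on either strand was present in Xbp1, Hspa5 and Hsp90b1, and in 21 of all 27457 windows (0.0765%). The 4 elements, each read 5′ to 3′ from its CCAAT end with CCAAT and CCACG in capitals, were as follows.
Xbp1: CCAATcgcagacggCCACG
Hspa5: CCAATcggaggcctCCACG
Hsp90b1 (first): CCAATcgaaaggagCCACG
Hsp90b1 (second): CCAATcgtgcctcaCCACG

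The Xbp1 element lay 65 to 47 bases before the start (chr14:84604558-84604576) and that of Hspa5 43 to 25 bases before it (chr3:38452973-38452991). Hsp90b1 held one at 176 to 158 bases (chr7:23012451-23012469) and one on the opposite strand at 72 to 54 bases (chr7:23012347-23012365). The 250 bases before the start of these 3 genes are printed 5′ to 3′ on the gene's strand with the ERSE matches in capitals, from chr14:84604373-84604622 (plus strand), chr3:38452766-38453015 (plus strand) and chr7:23012294-23012543 (minus strand).
Xbp1: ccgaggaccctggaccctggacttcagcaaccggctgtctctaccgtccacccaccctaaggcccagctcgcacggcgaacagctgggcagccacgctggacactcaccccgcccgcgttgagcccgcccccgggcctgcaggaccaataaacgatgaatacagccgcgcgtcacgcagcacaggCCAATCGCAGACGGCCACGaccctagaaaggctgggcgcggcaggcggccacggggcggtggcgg
Hspa5: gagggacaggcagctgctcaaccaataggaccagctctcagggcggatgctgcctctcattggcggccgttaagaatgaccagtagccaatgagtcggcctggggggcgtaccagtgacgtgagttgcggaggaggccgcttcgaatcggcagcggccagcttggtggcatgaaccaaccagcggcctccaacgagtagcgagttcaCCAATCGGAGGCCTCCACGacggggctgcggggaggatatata
Hsp90b1: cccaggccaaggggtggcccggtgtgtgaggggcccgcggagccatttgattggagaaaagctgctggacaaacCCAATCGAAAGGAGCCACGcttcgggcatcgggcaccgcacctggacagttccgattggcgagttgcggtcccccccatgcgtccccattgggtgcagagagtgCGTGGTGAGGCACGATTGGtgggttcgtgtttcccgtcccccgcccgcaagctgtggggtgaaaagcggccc
None of the 8 windows held the second ERSE (ATTGGNCCACG, in 0.0546% of all windows), the UPR element core TGACGTGG (0.637%) or the C/EBP-ATF response element TGATGNAAT, a site for ATF4 (1.05%), on either strand. The Dnajb9 window (chr6:67002052-67002301 before the start, minus strand) lay inside the annotated gene (chr6:66997842-67007371). The bases before the outer end of Dnajb9 were therefore not searched. The last bases of the Eif2ak3 stretch before the start (chr4:104363622-104363871, plus strand) also lay inside the annotated gene (chr4:104363838-104425271). The plain CCAAT box, which is also the left part of an ERSE, was found in 6 of the 8 and in 37.7% of all windows. A match is a description of letters and not evidence that a factor was bound.

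Sequencing depth was 28.2 to 29.5 M reads in the postnatal and 26.1 to 37.8 M reads in the fetal libraries, and between 383 and 67287 reads lay behind each value of the 10 genes. The preparations differed in the reads taken by markers of other cells. Acinar marker genes (31 genes, none under 3 reads in every library) took 51.4%, 29.0% and 25.7% of the reads in postnatal replicates 1, 2 and 3, against 9.32%, 12.5% and 11.9% in fetal replicates 1, 2 and 3. These sums hide differences among the genes. In the test described below, 74.2% of the 31 were higher and 6.45% lower in postnatal libraries, against 30.0% and 33.1% of all genes. The 7 islet hormone genes took 4.06% to 11.0% in postnatal and 0.216% to 0.614% in fetal libraries. The 8 mesenchymal markers took 0.473% to 1.28% in postnatal and 0.190% to 0.295% in fetal libraries, and the 10 erythroid markers 0.0666% to 0.159% in postnatal and 0.323% to 1.14% in fetal libraries. Hepatic markers stood at 0.789% in fetal replicate 2 and at no more than 0.0286% in any other library. Wilson 95% intervals reached at most 0.0181 percentage points from these shares and cover counting error only. In such bulk samples fewer cells of a type and less RNA per cell cannot be told apart, and the part of cell makeup in the results on the UPR genes was not tested.

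Expression is given as scaled CPM, read counts divided by a library size adjusted between libraries (1 read was worth 0.0242 to 0.0506), and differences are postnatal minus fetal on the log2(value + 1) scale, tested with limma and Benjamini-Hochberg adjustment over 12926 genes. Of the 10 UPR genes, Ppp1r15a, Dnajb9, Ddit3 and Ern1 rose and the chaperones Hspa5 and Hsp90b1 fell in postnatal islets, while Xbp1, Atf4, Eif2ak3 and Atf6 did not pass the test (adjusted p under 0.05). Of all genes tested, 63.1% were called, 30.0% higher and 33.1% lower, so 6 called genes of 10 is close to the background. The values of the postnatal and fetal libraries did not overlap in 7 of the 10, against 70.0% of all genes tested. The median difference was 0.17 over the 10 genes and -0.03 over all genes tested. Without fetal replicate 2 and postnatal replicate 1, the libraries with the highest hepatic and acinar shares, left out together after the data were seen, 3 of the 10 were higher and 2 lower.

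**Figure D1:**
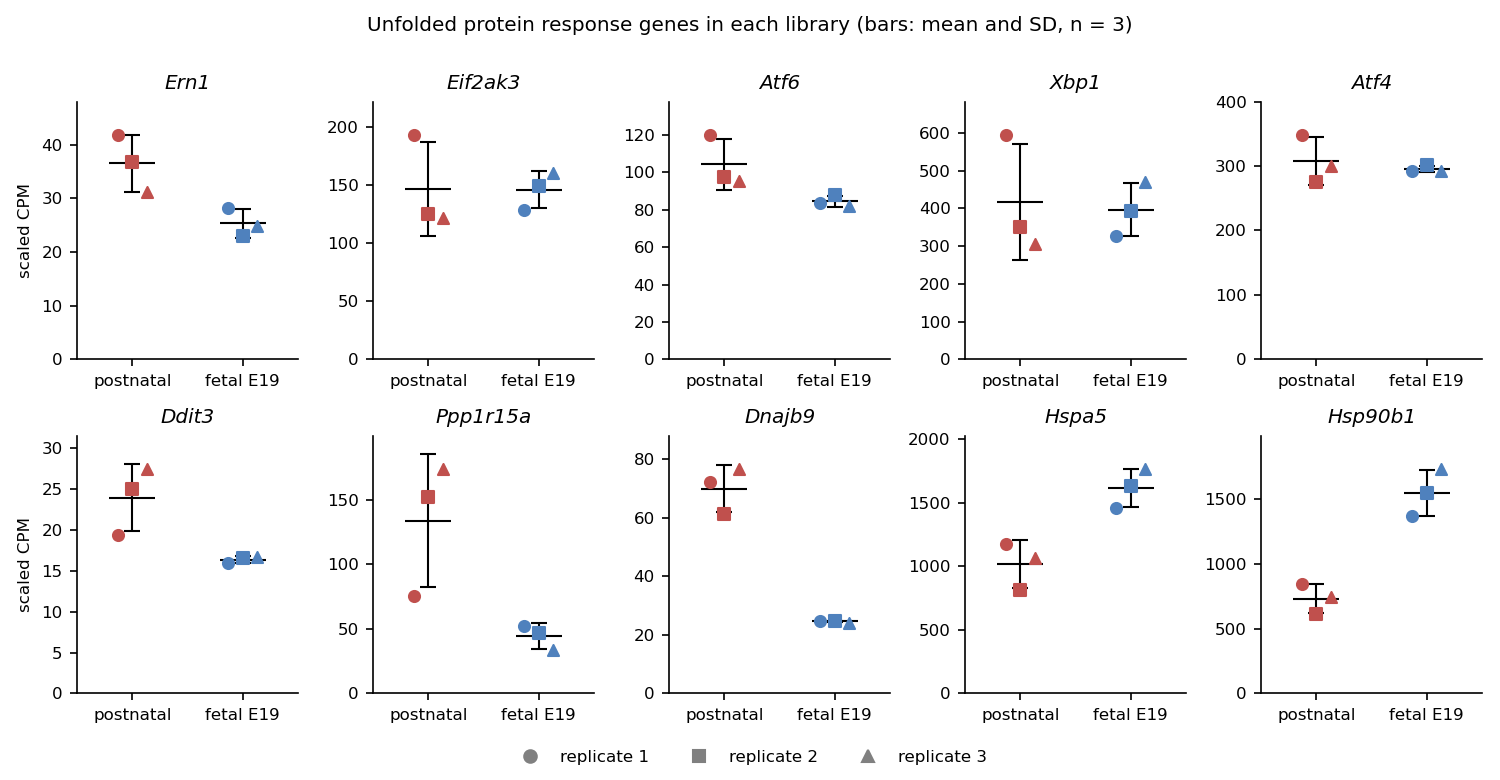
Expression of the 10 UPR genes in scaled CPM (vertical axes from 0), with postnatal libraries on the left and fetal E19 libraries on the right of each panel. Points are single libraries, with a marker shape for each replicate number, and black bars give the mean and SD (n = 3). With these values as deposited, Dnajb9 and Ppp1r15a are higher and Hspa5 and Hsp90b1 lower in every postnatal library, while the groups overlap for Xbp1, Atf4 and Eif2ak3.

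Among the sensors, Ern1, encoding the kinase and endoribonuclease IRE1, rose. Its values were 41.8, 36.8 and 31.1 scaled CPM in postnatal replicates 1, 2 and 3, against 28.2, 22.9 and 24.8 in fetal replicates 1, 2 and 3. Every postnatal library lay above every fetal one, and the difference was 0.51 ± 0.14 (SE; adjusted p = 0.0125). The call ended without fetal replicate 2 and postnatal replicate 1 together (0.35, adjusted p = 0.0855), and after rescaling all libraries to one common total, called equal-total scaling (0.17, adjusted p = 0.520). Eif2ak3, encoding PERK, stood at 193, 125 and 122 in postnatal and 128, 149 and 160 in fetal libraries. As deposited, postnatal replicate 1 was the highest and postnatal replicate 3 the lowest of the 6, so the groups overlapped (difference -0.02 ± 0.19, adjusted p = 0.928). Under equal-total scaling the postnatal values of Eif2ak3 (121 to 130) lay below the fetal ones (160 to 169). The difference was then -0.37 (adjusted p = 0.0553), where the median of all genes tested was -0.36.

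Atf6, the third sensor, stood just outside the threshold. It had 120, 97.7 and 95.2 scaled CPM in postnatal libraries and 83.4, 87.9 and 82.0 in fetal libraries, with no overlap, and the difference of 0.29 ± 0.11 gave an adjusted p of 0.0503. With edgeR's quasi-likelihood test on the recovered reads the adjusted p was 0.0281, with DESeq2 0.0126, and under equal-total scaling the difference was -0.06 (adjusted p = 0.797), so neither the call nor the direction of Atf6 was settled. Ratios between the sensors also varied among libraries, and are given as a description with no test. The log2 ratio of Ern1 to Eif2ak3 within a library, which no scaling can change, averaged -1.98 ± 0.22 in postnatal and -2.52 ± 0.29 in fetal libraries (SD, n = 3 each). Its groups overlapped slightly, at -2.20 in postnatal replicate 1 and -2.19 in fetal replicate 1.

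Of the transcription factors, Xbp1, the factor made active by IRE1, varied within both groups. It stood at 594, 351 and 306 scaled CPM in postnatal replicates 1, 2 and 3 and at 327, 394 and 470 in fetal replicates 1, 2 and 3. As deposited, the highest and the lowest value both belonged to postnatal libraries (difference 0.03 ± 0.26, adjusted p = 0.937). Under equal-total scaling the postnatal values (304 to 402) lay below the fetal ones (409 to 497), with a difference of -0.33 (adjusted p = 0.131). The highest as deposited, postnatal replicate 1, was the library with the highest acinar share, 51.4%. Without it the difference was -0.26 (adjusted p = 0.208). Spliced and unspliced Xbp1 mRNA are counted together here.

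Atf4, the factor translated when PERK is active, stood at 348, 275 and 300 in postnatal and 292, 301 and 293 in fetal libraries. As deposited the groups overlapped (difference 0.05 ± 0.12, adjusted p = 0.721). Under equal-total scaling its postnatal values (235 to 298) lay below the fetal ones (309 to 365), with a difference of -0.30 (adjusted p = 0.146). Atf4 passed as higher only under the rescalings without the 20 highest genes (0.29, adjusted p = 0.0344) and without the acinar and hormone genes (0.34, adjusted p = 0.0264). Ddit3, encoding the ATF4-induced stress factor CHOP, rose although Atf4 did not pass. It had 19.4, 25.0 and 27.4 scaled CPM in postnatal replicates 1, 2 and 3, against 15.9, 16.5 and 16.7 in fetal libraries. All 3 postnatal values lay above the fetal ones, which spread by only 0.406 (SD), and the difference was 0.51 ± 0.14 (adjusted p = 0.0146). The lowest postnatal value came from replicate 1, where the log2 ratio of Ddit3 to Atf4 was -4.17, within the fetal range of -4.20 to -4.13, against -3.46 and -3.45 in postnatal replicates 2 and 3. The Ddit3 call ended without postnatal replicate 2 (0.47, adjusted p = 0.0549), without postnatal replicate 3 (0.41, adjusted p = 0.0509) and under equal-total scaling (0.18, adjusted p = 0.611). Under that scaling postnatal replicate 1, at 13.1, lay below every fetal library (17.6 to 19.9). In the RefSeq table Ddit3 overlaps Mars1, a methionyl-tRNA synthetase gene whose reads could be counted with it. Mars1 did not pass, at 151, 117 and 104 in postnatal and 141, 159 and 178 in fetal libraries.

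Ppp1r15a, encoding GADD34, the phosphatase subunit that reverses the translation block set by PERK, rose, and as deposited every postnatal value lay above the fetal ones. It stood at 75.7, 152 and 173 scaled CPM in postnatal replicates 1, 2 and 3, against 52.5, 47.0 and 33.4 in fetal libraries. Postnatal replicates 2 and 3 were far above the fetal values, while postnatal replicate 1 lay between. The difference was 1.51 ± 0.31 (adjusted p = 0.00369), and 1.87 without postnatal replicate 1. Its log2 ratio to Atf4 averaged -1.28 ± 0.80 in postnatal and -2.76 ± 0.33 in fetal libraries, without overlap. Under equal-total scaling the Ppp1r15a values of the groups overlapped (difference 1.16, adjusted p = 0.0386). Postnatal replicate 1 then stood at 51.2, against 65.6 and 51.4 in fetal replicates 1 and 2. Ppp1r15b, the constitutive partner of the same phosphatase, did not pass, with a difference of 0.07 ± 0.16.

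Dnajb9, encoding ERdj4, an ER co-chaperone of the heat shock protein BiP that also helps to hold IRE1 inactive, gave the most uniform rise. It had 72.1, 61.1 and 76.5 scaled CPM in postnatal and 24.8, 24.6 and 24.2 in fetal libraries. As deposited, the fetal libraries were nearly identical (SD 0.327), and every postnatal library was more than 2 times as high (difference 1.47 ± 0.11, adjusted p = 4.61e-05). Neither held under equal-total scaling, with 31.1, 26.9 and 25.6 in fetal libraries and 48.8 in postnatal replicate 1. The groups still did not overlap. The difference ranged from 1.12 to 1.74 across the scalings and from 1.40 to 1.56 with any 1 library left out, and the call held in each of them.

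The chaperone genes moved the other way. Hspa5, encoding BiP, the Hsp70 chaperone that binds the sensors when the ER is unstressed, fell to 1177, 814 and 1061 scaled CPM in postnatal libraries, against 1458, 1628 and 1760 in fetal libraries. The groups did not overlap, and the difference was -0.68 ± 0.20 (adjusted p = 0.0186). The direction held under every alternative, but the call ended without postnatal replicate 2 (-0.53, adjusted p = 0.0841), without fetal replicate 2 (-0.67, adjusted p = 0.0621) or without fetal replicate 3 (-0.62, adjusted p = 0.0625). It also ended when the acinar and hormone genes were left out of the scaling (-0.39, adjusted p = 0.0654).

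Hsp90b1, encoding GRP94, the Hsp90 of the ER lumen, fell further. It had 843, 613 and 742 scaled CPM in postnatal libraries, against 1374, 1545 and 1730 in fetal libraries. Each postnatal value lay well under the lowest fetal one, and the difference was -1.09 ± 0.19 (adjusted p = 0.00152), a call that no alternative ended. RefSeq lists 2 Hsp90b1 pseudogenes, among which and the gene the counting could split reads, so its level is uncertain to that extent. Within each library Hspa5 stood higher relative to Hsp90b1 after birth, with log2 ratios of 0.47 ± 0.06 in postnatal and 0.06 ± 0.03 in fetal libraries (SD, n = 3 each). Dnajb9 relative to Hspa5 differed more, at -3.85 ± 0.16 in postnatal and -6.04 ± 0.15 in fetal libraries.

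**Figure D2:**
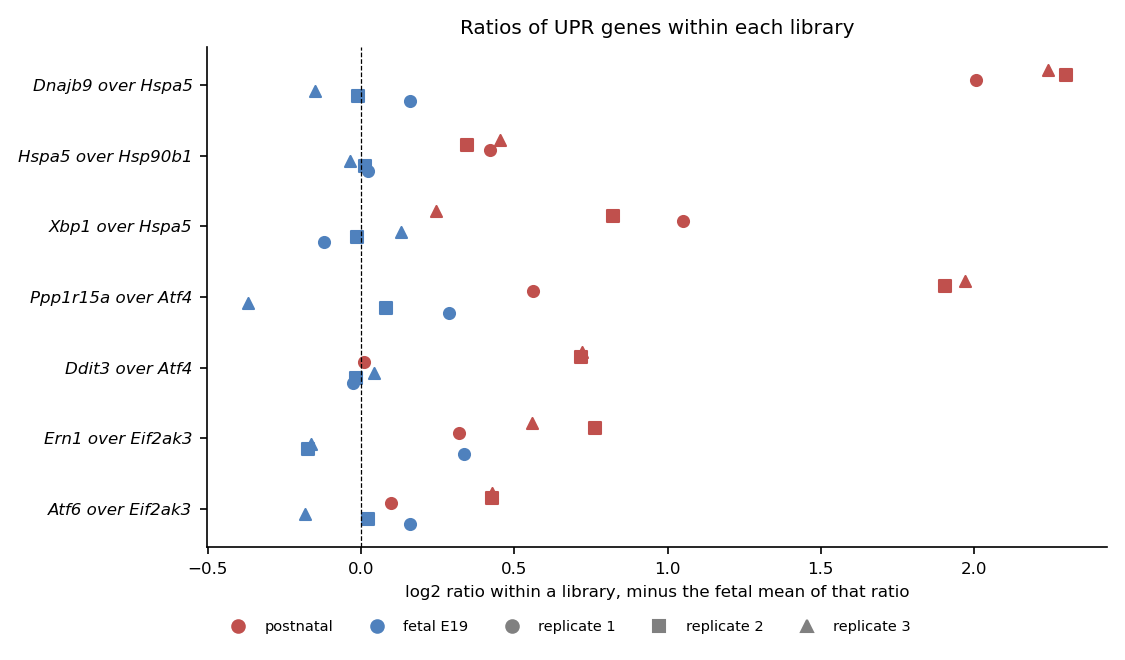
Log2 ratio of pairs of UPR genes within each library, minus the fetal mean of that ratio (horizontal axis), with postnatal libraries above fetal E19 libraries in each row and a marker shape for each replicate number. The ratio of Dnajb9 to Hspa5 separates the groups most widely, and in the ratios of Ppp1r15a and Ddit3 to Atf4 postnatal replicate 1 lies nearest to the fetal libraries.

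The scaling between libraries bears on all of these values, because acinar and hormone genes together took 55.5%, 35.4% and 36.7% of the reads in postnatal and 9.77%, 13.1% and 12.1% in fetal libraries. Equal-total scaling moved the median of all genes to -0.36, rescaling without the 20 highest genes to 0.20 and rescaling without the acinar and hormone genes to 0.24. The share of all calls that were higher, 47.5% as deposited, became 25.9%, 61.2% and 64.2% under these. Of the 10 UPR genes 2 were higher and 2 lower under the first, 6 higher and 2 lower under the second, and 6 higher and 1 lower under the third. The 6 called genes kept their direction under all of them. Under equal-total scaling, however, the postnatal and fetal values of Ern1, Atf6, Ddit3 and Ppp1r15a overlapped. Those of Xbp1, Atf4 and Eif2ak3, which overlapped as deposited, then lay lower in every postnatal library than in any fetal one. None of these passed (adjusted p = 0.131, 0.146 and 0.0553).

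**Figure D3:**
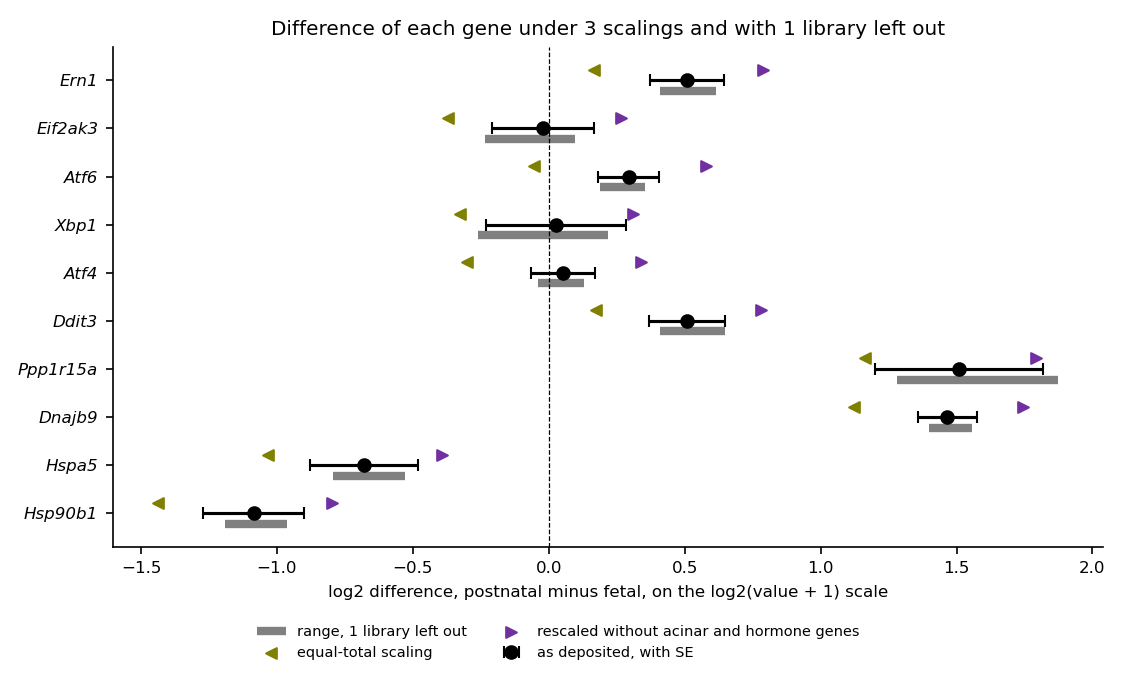
Log2 difference of each UPR gene, postnatal minus fetal, on the log2(value + 1) scale (horizontal axis). Black points with bars give the value and its SE with the deposited scaling, triangles the values under equal-total scaling and without acinar and hormone genes, and grey bars the range when 1 library is left out. Ppp1r15a and Dnajb9 lie above 0 and Hspa5 and Hsp90b1 below 0 throughout, while Eif2ak3, Xbp1, Atf4 and Atf6 cross 0.

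Postnatal replicate 1 stood apart within its group, in a way that depended on the scaling. As deposited it had the highest value of the 3 postnatal libraries for Ern1, Eif2ak3, Atf6, Xbp1, Atf4, Hspa5 and Hsp90b1 and the lowest for Ppp1r15a and Ddit3. With equal-total scaling it stayed the highest for Xbp1 and Eif2ak3 and the lowest for Ppp1r15a and Ddit3, but was the lowest for Ern1, Atf6, Atf4, Dnajb9, Hspa5 and Hsp90b1. Its labelled age of 2 postnatal weeks was the youngest and its acinar share, 51.4%, the highest of the group, and these cannot be told apart. The genes whose values over the 6 libraries were most like those of Xbp1, by the root mean square difference of centred log2 values, were Cd164l2 (0.07), Tmem139 (0.09) and Hm13 (0.09), the last encoding signal peptide peptidase. For Hspa5 they were Tpd52 (0.03), Lman2 (0.05), which encodes a cargo lectin of the early secretory pathway, and Cenpv (0.05). For Ddit3 they were Pard6a (0.03), Daam1 (0.03) and Cfap45 (0.04). With 6 libraries in groups that differ in most genes, such likeness is a description only.

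Among the other chaperones and disulfide enzymes of the ER lumen more genes fell than rose. Of 29 tested, 14 were lower, 2 higher and 13 not called (6.90% against 30.0% of all genes called higher, and 48.3% against 33.1% called lower), with a median of -0.53. The fallen genes included Calr, the lectin chaperone calreticulin (747, 531 and 643 scaled CPM in postnatal, 1201, 1412 and 1518 in fetal libraries, difference -1.11 ± 0.18), and the disulfide isomerases Pdia4 (-1.22) and Pdia6 (-1.17). Calr was also, of all genes tested, the one most like Hsp90b1 over the 6 libraries (0.03), a comparison added after its values were seen. The 2 that rose were the disulfide oxidase Ero1b, strong in secretory cells of the pancreas (354, 193 and 256 in postnatal, 50.9, 66.3 and 57.1 in fetal libraries, difference 2.15 ± 0.21), and the ER peroxiredoxin Prdx4 (467 ± 270 in postnatal, 170 ± 31.2 in fetal libraries, 1.32 ± 0.35). Both were highest as deposited in postnatal replicate 1, the library with the highest acinar share, but with equal-total scaling Ero1b was highest in postnatal replicate 3. After rescaling without the acinar and hormone genes 11 were lower and 5 higher, where 23.4% of all genes were lower and 42.0% higher, and under equal-total scaling 22 were lower and 2 higher, where 39.6% of all genes were lower and 13.8% higher.

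Genes that bring proteins into and out of the ER also included more that fell than rose. Of 28 tested genes of translocation, signal peptide cleavage and glycosylation, 19 fell and none rose (67.9% lower, against 33.1% of all genes, with a median of -0.73 against -0.03), led by Ssr2 of the translocon-associated complex (188 ± 70.6 in postnatal, 492 ± 94.0 in fetal libraries, -1.43 ± 0.26) and Srp19 of the signal recognition particle (-1.28 ± 0.17). Without the acinar and hormone genes in the scaling, 13 were lower and 3 higher, and under equal-total scaling 24 were lower and none higher. Of 24 genes of the coats and cargo receptors between ER and Golgi, 11 fell and none rose (45.8% lower, against 33.1% of all genes, median -0.40), with Tmed9 (-1.25 ± 0.17) and the coat subunit gene Sec13 (-1.08 ± 0.18) in front. That count was 7 lower without postnatal replicate 2, postnatal replicate 3, fetal replicate 2 or fetal replicate 3, with 1 higher without postnatal replicate 3, and 5 lower and 5 higher without the acinar and hormone genes in the scaling. It was 16 lower and none higher under equal-total scaling and also without postnatal replicate 1.

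**Figure D4:**
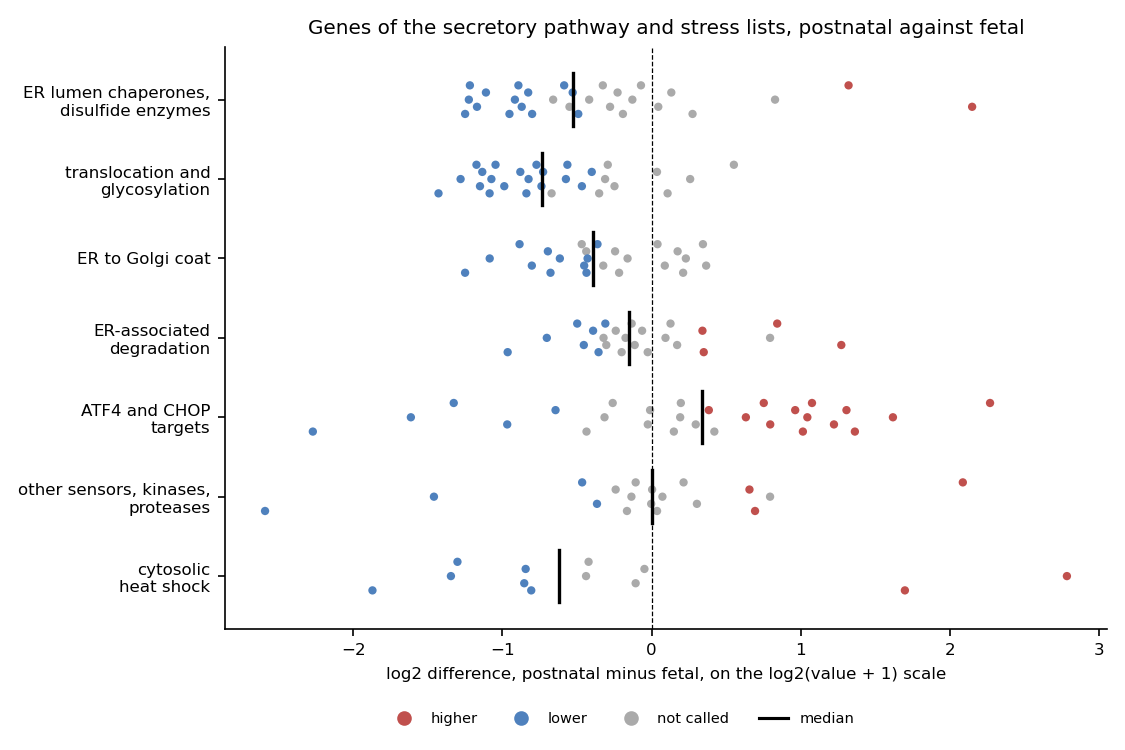
Log2 difference, postnatal minus fetal, of each tested gene in 7 lists (1 row each, horizontal axis on the log2(value + 1) scale), coloured by whether the gene was called higher, lower or neither, with the list median as a black line. The ER chaperone and translocation lists lie mainly below 0, with medians of -0.53 and -0.73, and the ATF4 and CHOP targets mainly above it, with a median of 0.34.

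ER-associated degradation, which removes misfolded proteins, was split and its balance depended on the scaling. Of 24 tested genes 4 rose and 7 fell (16.7% and 29.2%, against 30.0% and 33.1% of all genes, median -0.15). Without the acinar and hormone genes in the scaling 7 were higher and 1 lower (median 0.13), and under equal-total scaling 2 were higher and 13 lower (median -0.50). With 1 library left out, the lower genes numbered as few as 3, without postnatal replicate 2 or fetal replicate 3. Derl3, a derlin of secretory cells, had 38.9, 15.1 and 22.9 scaled CPM in postnatal and 9.24, 9.12 and 9.56 in fetal libraries (1.27 ± 0.29, adjusted p = 0.00618). Again the highest value was in postnatal replicate 1. Vcp, the ATPase that extracts proteins from the ER, fell to 490 ± 72.5 in postnatal libraries, against 955 ± 116 in fetal ones (-0.96 ± 0.17). Herpud1, a membrane component of the degradation machinery, rose by 0.84 ± 0.14.

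Targets of ATF4 and CHOP moved in both directions. Of 28 tested, 13 rose and 5 fell (46.4% and 17.9%, against 30.0% and 33.1% of all genes, median 0.34). Under equal-total scaling 6 were higher and 7 lower (median 0.06), where 13.8% of all genes were higher and 39.6% lower. Vldlr, a lipoprotein receptor gene, rose to 77.8 ± 7.10 scaled CPM in postnatal libraries, against 15.8 ± 4.73 in fetal ones (2.27 ± 0.21). The stress factor genes Atf3 (1.62 ± 0.42) and Atf5 (1.36 ± 0.12), the asparagine synthetase gene Asns (0.96 ± 0.21) and the amino acid transporter gene Slc3a2 (0.75 ± 0.12) also rose. The fallen genes included the serine synthesis enzymes Psat1, at 23.1 ± 6.91 in postnatal and 113 ± 19.1 in fetal libraries (-2.27 ± 0.22), and Phgdh (-1.61 ± 0.28), and the mitochondrial Shmt2 (-1.33 ± 0.16). Trib3, a pseudokinase gene often used as a CHOP readout, did not pass, with 1.87, 2.44 and 2.22 in postnatal and 1.23, 2.15 and 1.45 in fetal libraries.

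Of 18 further sensor, kinase and protease genes tested, 3 rose and 4 fell (16.7% and 22.2%, both under the 30.0% and 33.1% of all genes), a count that became 7 and 2 without the acinar and hormone genes in the scaling and 1 and 5 under equal-total scaling. Crebrf, a negative regulator of CREB3, rose to 57.1 ± 4.20 in postnatal libraries, against 12.8 ± 1.88 in fetal ones (2.09 ± 0.13), and Creb3l4, an ER-bound factor of the ATF6 type, fell to 1.09 ± 0.288 in postnatal libraries, against 11.5 ± 1.34 in fetal ones (-2.59 ± 0.16). Eif2s1, encoding the eIF2 alpha subunit that PERK phosphorylates, fell by 1.46 ± 0.13. Wfs1, a beta cell ER protein gene, rose by 0.66 ± 0.11 in libraries whose hormone share was also higher.

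Genes with an ERSE did not share a direction. Besides Xbp1, Hspa5 and Hsp90b1, 13 tested genes had an ERSE match in their window, and of the 16 together 3 were higher and 6 lower (18.8% and 37.5%), with a median of -0.21, against 29.3% higher and 33.6% lower and a median of -0.04 among the 9820 tested genes with a window. The chaperone genes Calr and Creld2 (-1.22) fell with Hspa5 and Hsp90b1, Ero1b and Derl3 rose, and Xbp1, Canx (-0.42) and Dnajc3 (-0.13) did not pass. Birc5, the survivin gene of dividing cells, had the largest fall of the 16 (-2.98). Of 11 tested genes with the second ERSE, 2 were higher and 7 lower (18.2% and 63.6%), with a median of -0.50. Among these Herpud1 rose, while the BiP co-chaperone gene Dnajb11 fell (-0.59).

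**Figure D5:**
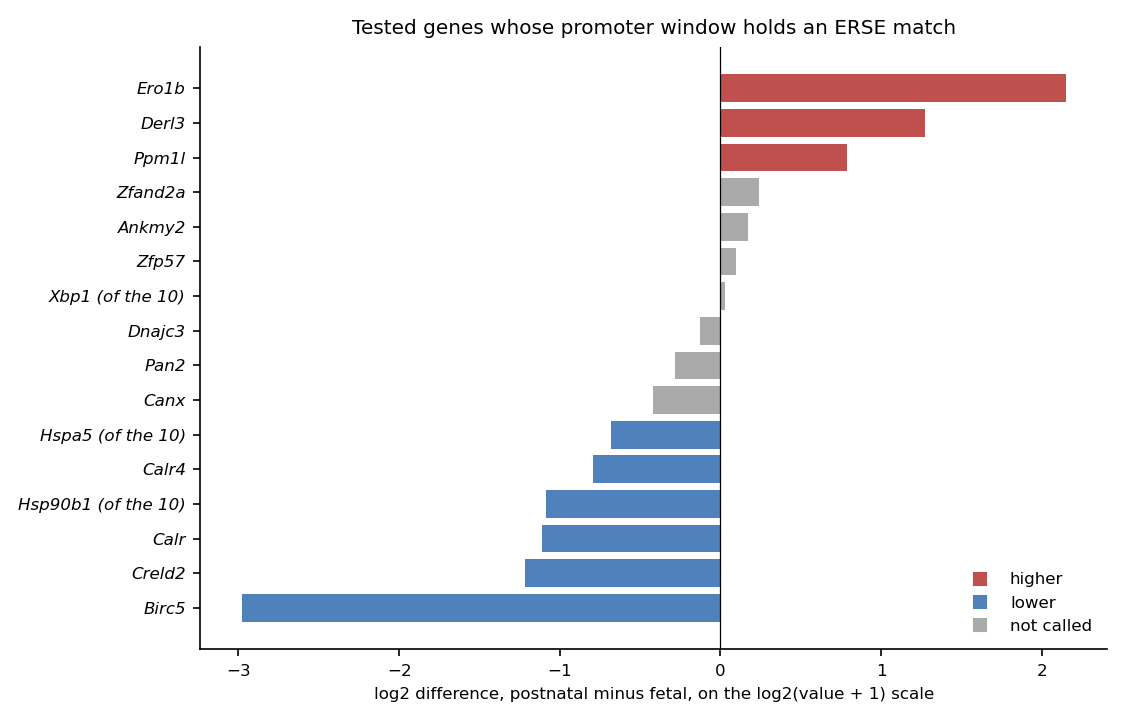
Log2 difference, postnatal minus fetal, of the 16 tested genes with an ERSE match in the RefSeq promoter window (horizontal axis on the log2(value + 1) scale, bars from 0), coloured by whether the gene was called. The bars run from -2.98 for Birc5 to 2.15 for Ero1b, with Xbp1, Hspa5 and Hsp90b1 at 0.03, -0.68 and -1.09.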

How the data were processed

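Total RNA from freshly isolated rat islets was made into libraries with a stranded, ribosomal RNA-depleted kit, per the labels' protocols. The submitters' processing notes name TopHat2 2.0.8b and edgeR 3.30.3; the build, the counting tool and its strand and multimapping settings are not given by the sources used here. The deposited signal of each gene was a whole number of reads times 1 constant per library (100% of values whole within 0.001), called scaled CPM here, and the constants matched TMM-scaled library sizes. The 1 to 9 reads of a row without a gene name were left out.

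Values of at least 1 in at least 3 libraries were kept (12926 genes), transformed as log2(value + 1) and compared, postnatal minus fetal, with limma 3.58.1 (trend) in R 4.3.3, with p-values adjusted by Benjamini-Hochberg over all of them. This pseudocount understates changes of low genes. edgeR 4.0.16 called 4060 genes higher and 4068 lower, and DESeq2 1.42.0 called 4206 higher and 4160 lower, on the recovered reads. Other pseudocounts, filters, scalings, a replicate block, the labelled week as a covariate and omission of each library were also tried. The fit was tested on simulated data in which few genes were changed and all shared a common spread, unlike these data. That test therefore does not measure the errors of the fit here. Replicate libraries differed by more than sampling noise, so none was counted as a duplicate.

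Members, gene lists and tests were chosen with earlier results of these data known. Besides the 10 UPR genes, the text names in each list the 2 tested genes with the largest differences, the 3 genes most like Xbp1, Hspa5 and Ddit3, and other list genes with known roles, chosen after their values were seen. Promoters came from a RefSeq table (GRCr8), and lists were matched by symbol or synonym.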

Additional observations from a re-analysis of the deposited data

How the results depend on the processing

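Of the 10 UPR genes, 4 were higher and 2 lower as reported. With all libraries rescaled to one common total 2 were higher, and of all genes 1780 were then higher, against 3874 as reported. After rescaling without acinar and hormone genes 1 was lower. With 1 library left out, the number higher ranged from 3 to 4 and the number lower from 1 to 2. Over the 24 genes named by rule and 22 alternatives, 10 of 528 values lost the call, 10 gained it, none reversed a call and 508 kept their side of the threshold. Of these 508, 16 uncalled values of Xbp1, Atf4, Atf6 and Eif2ak3 changed sign, to between -0.33 and 0.26. Every lost call was of Ern1, Ddit3 or Hspa5 and every gained call of Atf6 or Atf4, all among the 10 UPR genes. The other genes named by rule had the largest differences of their lists, so their kept calls are no measure of stability. The causes were not tested. Deviations from the group means of same-numbered libraries correlated at -0.207, 0.102 and -0.253, and those of differently numbered ones at -0.361 to 0.431. With so few libraries per group, these values cannot decide whether the replicate numbers pair the libraries. With a replicate block 1 of the 10 was lower (Hspa5 lost its call, adjusted p = 0.0603), and 3563 genes were higher and 3863 lower. The fewest reads behind a UPR gene were 383 (Ddit3), and the number of libraries limits the precision.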

Other observations

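Heat shock genes of the cytosol and mitochondria, which serve protein folding outside the ER, were set beside the UPR genes for comparison. Of 12 tested, 2 rose and 6 fell (where 30.0% of all genes rose and 33.1% fell, with a median of -0.62 against -0.03). Hspb1, a small heat shock protein gene, had 77.4, 166 and 194 scaled CPM in postnatal replicates 1, 2 and 3, against 22.7, 23.2 and 12.6 in fetal libraries (2.78 ± 0.36). Hspd1, the mitochondrial chaperonin gene, fell to 253 ± 16.7 in postnatal libraries, against 931 ± 112 in fetal ones (-1.87 ± 0.13).

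The genes most like Ppp1r15a over the 6 libraries, looked at after its values were seen, were Plk3, Dusp1 and Ier3, known as early response genes. Dusp1 had 129, 265 and 287 scaled CPM in postnatal replicates 1, 2 and 3 and 91.5, 85.2 and 63.9 in fetal libraries, with postnatal replicate 1 again the lowest postnatal one. Of 5 tested genes in a list of early response genes chosen at that point, 1 was higher and 1 lower (20% each). Of all genes tested, 30.0% were higher and 33.1% lower. Junb rose (122, 234 and 300 in postnatal, 101, 92.4 and 73.7 in fetal libraries, 1.21 ± 0.31), Jun fell (178, 279 and 288 in postnatal, 385, 332 and 364 in fetal libraries, -0.57 ± 0.19), and Fos, Fosb and Egr1 did not pass. The Jun call ended after rescaling without the 20 highest genes or without the acinar and hormone genes. It also ended without fetal replicate 2 and postnatal replicate 1 together.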
